A study of Homo sapiens with 2 samples.

Results

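The PAX5 binding sites at 9 genes for cell surface proteins of the B lineage were examined in the NALM6 cell line, which grew out of a human precursor B-cell leukaemia. The genes were MS4A1, CD37, CD38, CR2, FCER2, CD9, MME, TNFRSF13C and CD34. Sites were taken as all deposited peaks whose summit lay in the hg19 span of a gene, given in whole kb, or within 10 kb on either side. This gave 32 of 21361 peaks. They come from 1 chromatin immunoprecipitation (ChIP) sample, in which an Abcam antibody drew down PAX5 with its DNA, set against 1 input sample that saw no antibody. Both samples came from untreated NALM6 cells kept for 4 days in RPMI lacking phenol red, with 10% serum and 2 mM glutamine. The ChIP library, a pool, held 46190180 tags and the control 25416858. The control carries the name RXL in its title, which is not explained in the sources used here, and all folds below rest on it.

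PAX5 is a transcription factor that commits progenitors to the B lineage and holds mature and immature B-cells in it, by activating B-cell genes and repressing genes of other lineages. Surface proteins are the part of this programme that is read by antibodies, in diagnosis and in treatment. MS4A1 encodes CD20, MME encodes CD10, CR2 encodes CD21, FCER2 encodes CD23 and TNFRSF13C encodes the receptor for the survival factor BAFF. CD20, CD37 and CD38 are targets of therapeutic antibodies, CD10 is a classical marker of precursor B-cell leukaemia, and CD34 marks haematopoietic progenitors.

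The promoters of 5 of the genes are shown because the ChIP data divide them into genes with a summit within 1 kb of the start end of the span (FCER2, CD38 and CD9) and genes without one (CR2 and CD34). They are RefSeq sequences on GRCh38.p14, the 250 bases before the annotated start, and for FCER2 and CD9 the most upstream of the starts listed. Capitals mark GCGTG, the first part of the PAX5 core GCGTGAC, searched on both strands. The positions are chr19:7702132-7702381 on the minus strand for FCER2, chr4:15778078-15778327 on the plus strand for CD38, chr12:6199696-6199945 on the plus strand for CD9, chr1:207454078-207454327 on the plus strand for CR2 and chr1:207911126-207911375 on the minus strand for CD34.
FCER2: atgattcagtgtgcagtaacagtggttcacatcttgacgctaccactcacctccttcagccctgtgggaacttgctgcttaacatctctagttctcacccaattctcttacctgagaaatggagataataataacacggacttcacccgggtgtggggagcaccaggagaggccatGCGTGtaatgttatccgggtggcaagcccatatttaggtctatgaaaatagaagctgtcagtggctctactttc
CD38: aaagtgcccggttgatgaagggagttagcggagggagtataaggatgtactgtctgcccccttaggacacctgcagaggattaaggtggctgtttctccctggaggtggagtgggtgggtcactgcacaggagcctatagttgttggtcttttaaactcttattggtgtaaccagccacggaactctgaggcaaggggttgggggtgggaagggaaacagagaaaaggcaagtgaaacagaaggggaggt
CD9: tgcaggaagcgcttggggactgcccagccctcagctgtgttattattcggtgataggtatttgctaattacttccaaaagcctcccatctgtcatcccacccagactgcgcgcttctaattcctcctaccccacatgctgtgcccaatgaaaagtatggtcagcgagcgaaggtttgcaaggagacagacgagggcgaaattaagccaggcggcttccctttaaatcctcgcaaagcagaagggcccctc
CR2: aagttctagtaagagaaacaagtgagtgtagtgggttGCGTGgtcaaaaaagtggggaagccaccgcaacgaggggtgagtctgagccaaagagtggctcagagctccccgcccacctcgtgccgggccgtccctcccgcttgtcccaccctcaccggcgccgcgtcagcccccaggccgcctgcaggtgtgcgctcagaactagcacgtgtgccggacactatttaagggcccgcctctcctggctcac
CD34: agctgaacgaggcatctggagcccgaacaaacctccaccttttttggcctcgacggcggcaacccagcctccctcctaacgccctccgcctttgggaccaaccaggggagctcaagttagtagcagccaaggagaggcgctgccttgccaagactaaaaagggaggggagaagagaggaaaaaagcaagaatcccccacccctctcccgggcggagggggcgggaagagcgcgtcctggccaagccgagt

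The letters GCGTG were present at genes with and without a peak at the start. The full promoter windows of 300 bases add 50 bases after the start. In them GCGTG was present once at the most upstream start of FCER2, a gene with a summit at its start end. It was also present once in CR2, which had no peak. CD38, CD34, the other listed start of FCER2 and the most upstream start of CD9 lacked it. The longer GCGTGAC was in none of the 13 RefSeq promoters of the 6 genes found in the table. These letters are in 36.5% and 2.52% of 35116 promoters of this length. The second and the third start of CD9 held GCGTG, the latter at a pair of places, and so did 1 of the 4 starts of MME. An EBF1-type palindrome, CCCNNGGG, was found in 1 promoter of MME alone (19.1% of all promoters). The E-box CAGCTG was found in CR2 and in 3 of the 4 CD9 promoters (17.9% of all), GAGGAA of the PU.1 type in CD34 and 2 CD9 promoters (27.9%), and CANNTG, which contains CAGCTG, in CD38, CR2 and CD34 and in 3 of the 4 promoters of both MME and CD9 (68.7%). The octamer ATGCAAAT (1.77%) and TATAAA (11.5%) were in none. Promoters of MS4A1, CD37 and TNFRSF13C were not examined. The summits are on hg19 and the promoters on another build, so no distance between a summit and a motif is given.

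PAX5 peaks were called in the windows of 8 of the 9 genes, and they were spread very unevenly. CD9 had 9, MME 7 and TNFRSF13C 7, together 23 of the 32. These counts depended on the threshold: at a −log10 q of at least 10, CD9 kept 3, MME 4 and TNFRSF13C 4. MS4A1, CD37, FCER2 and CD34 had 2 each, CD38 had 1 and CR2 had none. The windows, 558 kb in all, held 57.3 peaks per Mb (exact Poisson 95% interval 39.2 to 81.0), against 7.25 per Mb over chromosomes 1 to 22 and X. The interval treats the peaks as independent, which their clustering makes doubtful. That background includes gene-poor and unsequenced stretches, and no set of other genes was placed on hg19, so nothing particular to surface antigens can be read from the difference.

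The number of peaks can be read against consecutive windows of equal length along these chromosomes. All listed peaks were counted, and the shares were not computed at a stricter threshold. At least 1 peak was present in 10.5% of the windows as long as that of TNFRSF13C, 12% for CD37, 14.7% for FCER2, 15.3% for MS4A1, 18.8% for CD34, 21.7% for CD9, 29.2% for CD38 and 41.1% for MME. The CR2 window, at 21.2%, was thus in the common state of having no peak. The 9 peaks of CD9 were equalled or exceeded in 0.134% of such windows, and the 7 of TNFRSF13C in 0.0312%. For MME, whose window is the longest, 4.55% of windows held 7 or more. At least 2 peaks were found in 3.81% of windows for CD37, 5.18% for FCER2, 5.55% for MS4A1 and 7.56% for CD34. On the gene's own chromosome the shares with as many peaks were higher for CD37 (12.2%) and FCER2 (16.2%), both on chromosome 19. They were also higher for MS4A1 (6.09%), CD34 (8.59%) and TNFRSF13C (0.0861%), and lower for MME (1.92%) and CD9 (0.0441%). At least 1 peak was present in 18.9% of own-chromosome windows for CD38, a lower share, and 24.6% for CR2, a higher one.

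**Figure D1:**
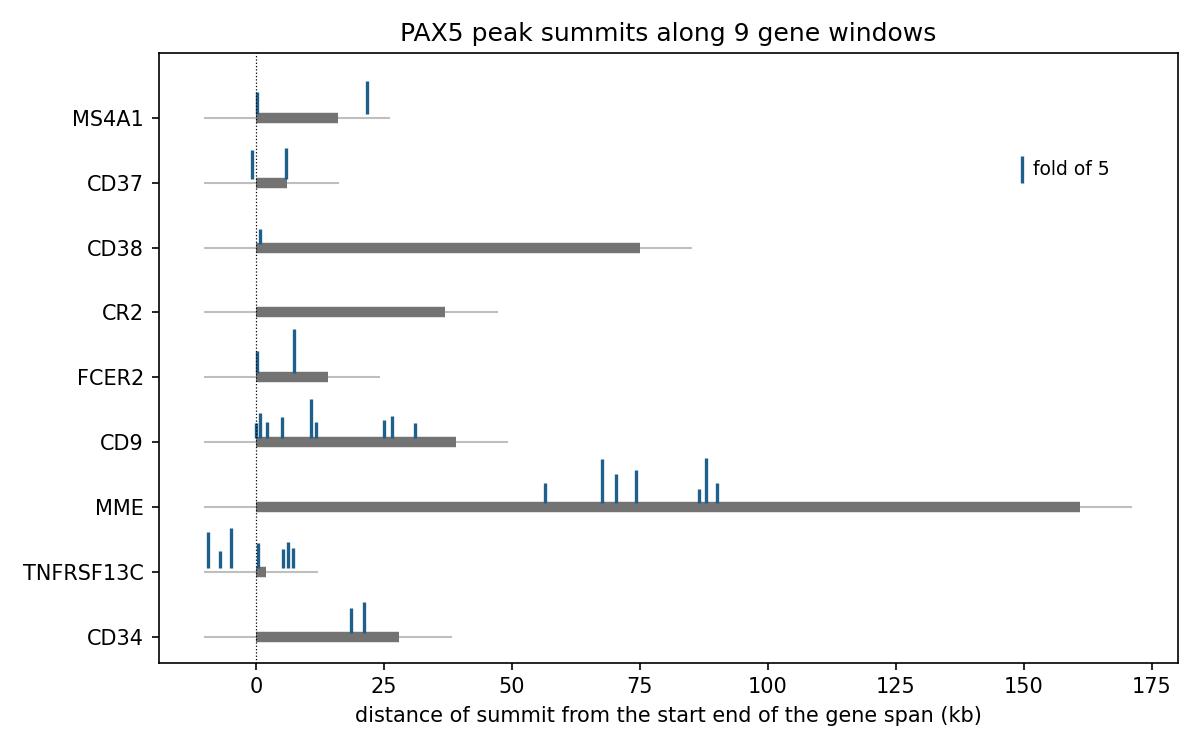
Summits of all 32 peaks by distance in kb from the start end of each gene span, read in the direction of transcription. Thick bars are the gene spans, thin lines the 10 kb flanks, and the height of a blue line is the fold enrichment, with a key for a fold of 5. The 9 peaks of CD9 run along its span, those of MME occupy its middle, and 6 of the 7 at TNFRSF13C lie in the flanks.

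**Figure D2:**
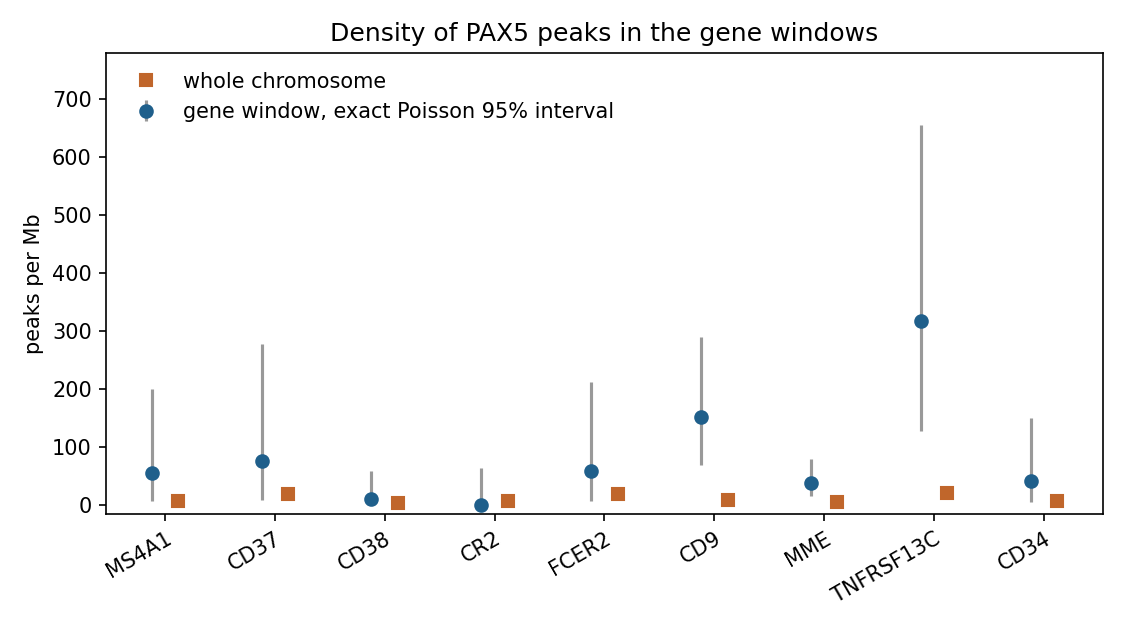
Peaks per Mb in each gene window (circles, with exact Poisson 95% intervals for counting error) and on its whole chromosome (squares). TNFRSF13C (318 per Mb against 21.8) and CD9 (153 against 8.34) stand highest, and CR2 is at 0.

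Enrichment in these windows was moderate. Fold enrichment is the authors' own ratio of ChIP pileup to local control, and its median over the 32 peaks was 4.36, with a range of 2.69 to 8.39, against a median of 3.89 over all peaks. The exact binomial interval of the median, 3.64 to 5.63, includes the value of all peaks. A fold of 5 was reached by 12 of the 32 (37.5%, Wilson 95% interval 22.9 to 54.7), against 25% of all peaks, a share inside that interval. Both intervals treat the peaks as independent, although 23 of the 32 lie in 3 windows of 1 ChIP pool. They are descriptions and not a test of these genes against all peaks. A fold of 8 was reached by 3 (4.68% of all peaks), and none reached 10. The summits carried a median of 74.5 ChIP reads over a control background of 9.0 reads, against 61 and 8.0 in the whole list. Reads are given before scaling and backgrounds at the depth of the control, so a fold is the reads times 0.550, plus 1, over the background plus 1. Peaks 1000 bp wide or more numbered 3, at MME and CD9, where 3.22% of all peaks are as wide.

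With 1 ChIP pool and 1 control there is no replicate. The intervals given with folds are exact Poisson 95% intervals of the ChIP reads with the control taken as fixed. They cover the counting error of the ChIP reads only, not that of the control, and no test between conditions was possible. Intervals that lie apart are therefore apart only with the control held fixed. Overlap of intervals does not show that sites are equal, and differences between sites were not tested. The list holds only sites past the caller's threshold, so a gene without a peak may still have weaker binding.

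Among the receptors, FCER2 had the site of highest fold, although its interval overlaps that of the strongest TNFRSF13C site. FCER2 encodes CD23, the low-affinity receptor for IgE on B-cells. Its main summit, on chromosome 19 at 7759522, lay 7.48 kb into the 14 kb span. It held 118 ChIP reads over a background of 7.0, a fold of 8.24 (6.84 to 9.85). The summit near the start end, at 7766789, held 52 reads over 6.07, a fold of 4.19 (3.16 to 5.45). The intervals do not overlap, so the internal site was the stronger by more than the counting error of the ChIP reads. The counting error of the control, low at both sites, is not included.

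TNFRSF13C encodes BAFF-R, through which B-cells receive a survival signal. Its 7 peaks on chromosome 22 spanned 16.5 kb, of which the gene span makes up 2 kb. The summit at 42322714, 286 bp from the start end, held 82 reads over 9.0, a fold of 4.61 (3.69 to 5.70). The strongest, at 42327803 and 4.80 kb before the start end, held 115 reads over 7.65, a fold of 7.43 (6.16 to 8.90). The next, at 42332387 and 9.39 kb before it, held 145 reads over 11, a fold of 6.73 (5.69 to 7.91). The other 4 had folds from 3.21 to 4.79. The 2 strong sites thus lay upstream of the gene, on the side where CENPM is the next protein-coding gene in RefSeq, with SHISA8 on the other side. Without the flanks only the summit near the start end remained, and the highest fold was 4.61. To which gene the flanking sites belong was not tested.

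CR2 encodes CD21, the receptor for complement fragment C3d. No peak was called in its 57 kb window. The nearest summit, on chromosome 1 at 207605100, lay 21.9 kb before the start end, on the side of CD55, with 89 reads over 9.0 and a fold of 5.00 (4.03 to 6.13). On the other side, towards CR1, the next summit was 305 kb past the end of the span.

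Among the 4-span membrane proteins, MS4A1 and CD37 each had a site near the start end and one at or past the far end. MS4A1 encodes CD20. Its first summit, on chromosome 11 at 60223163, lay 163 bp inside the start end with 58 reads over 7.0, a fold of 4.11 (3.15 to 5.28). The second, at 60244668, lay 5.67 kb past the far end with 109 reads over 9.0, a fold of 6.10 (5.02 to 7.34). The intervals overlap, and whether the pair differs was not tested. Without the flanks the second is lost and the highest fold becomes 4.11.

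CD37, a tetraspanin of mature B-cells, had a summit on chromosome 19 at 49837266, 734 bp before the start end. It held 94 reads over 9.0, a fold of 5.27 (4.28 to 6.43). The other summit, at 49843772, lay 5.77 kb into the 6 kb span, on the side of the neighbouring gene TEAD2, with 152 reads over 14, a fold of 5.64 (4.79 to 6.60). The second site had the more reads but also the higher control background, and the intervals of the folds overlap. Without the flanks the first is lost and CD37 has 1 peak.

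CD9, a tetraspanin found on precursor B-cells and many other cells, had all of its 9 summits inside the span or at its start end. Those within 1 kb of the start end, on chromosome 12 at 6309047 and 6309787, held 53 and 67 reads, with folds of 2.74 (2.08 to 3.56) and 4.75 (3.71 to 6.0). The strongest, at 6319756 and 10.8 kb into the span, held 156 reads over 11, the most reads at any of the 32 summits, with a fold of 7.24 (6.16 to 8.45). No other CD9 summit had an interval reaching that site's. The remaining 6 had folds from 2.89 to 4.10. CD9 was thus a run of weak sites around 1 strong one, with a median fold of 3.37, below that of all peaks.

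Of the enzymes, MME carried many sites and CD38 a single weak one. MME encodes CD10, a membrane metallopeptidase also known as neprilysin and as the common acute lymphoblastic leukaemia antigen. All 7 of its summits, on chromosome 3, lay within 33.4 kb in the middle of the 161 kb span, with no peak in the first 56.5 kb or the last 71.0 kb. The 2 strongest were at 154828938, with 154 reads over 9.22 and a fold of 8.39 (7.13 to 9.80), and at 154808546, with 117 reads over 7.0 and a fold of 8.17 (6.78 to 9.77). They were 2 of the 3 sites in the 9 windows to reach a fold of 8, the third being the internal site of FCER2.

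Between the strong MME sites, the summits at 154815170 and 154811247 had folds of 6.19 (4.93 to 7.68) and 5.33 (4.33 to 6.49). The first summit in the direction of transcription, at 154797532, belonged to the widest of the 32 peaks (1137 bp), with 71 reads and a fold of 3.64 (2.87 to 4.57). The summits on either side of the strongest had folds of 2.69 and 3.79. The RefSeq table lists 4 starts of MME, which need not lie at the start end of the span used here. Where they lie on hg19 relative to these summits was not determined, so MME may have a peak at one of them.

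CD38 encodes a surface enzyme that makes cyclic ADP-ribose. Its only summit, on chromosome 4 at 15780704, lay 704 bp into the 75 kb span. It held 58 reads over 10.8, a fold of 2.79 (2.14 to 3.58), and the 74.3 kb after it held no peak. Its −log10 q was 4.08, and a threshold of 5 left CD38 without a peak.

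CD34, a sialomucin of progenitor cells, had no summit near its start end. Both of its summits, on chromosome 1 at 208063816 and 208066413, lay 21.2 and 18.6 kb into the 28 kb span. They held 112 and 64 reads, with folds of 5.63 (4.65 to 6.76) and 4.54 (3.53 to 5.76), which overlap. Expression was not measured here, so whether any of the 9 genes is active in these cells cannot be read from the peaks.

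**Figure D3:**
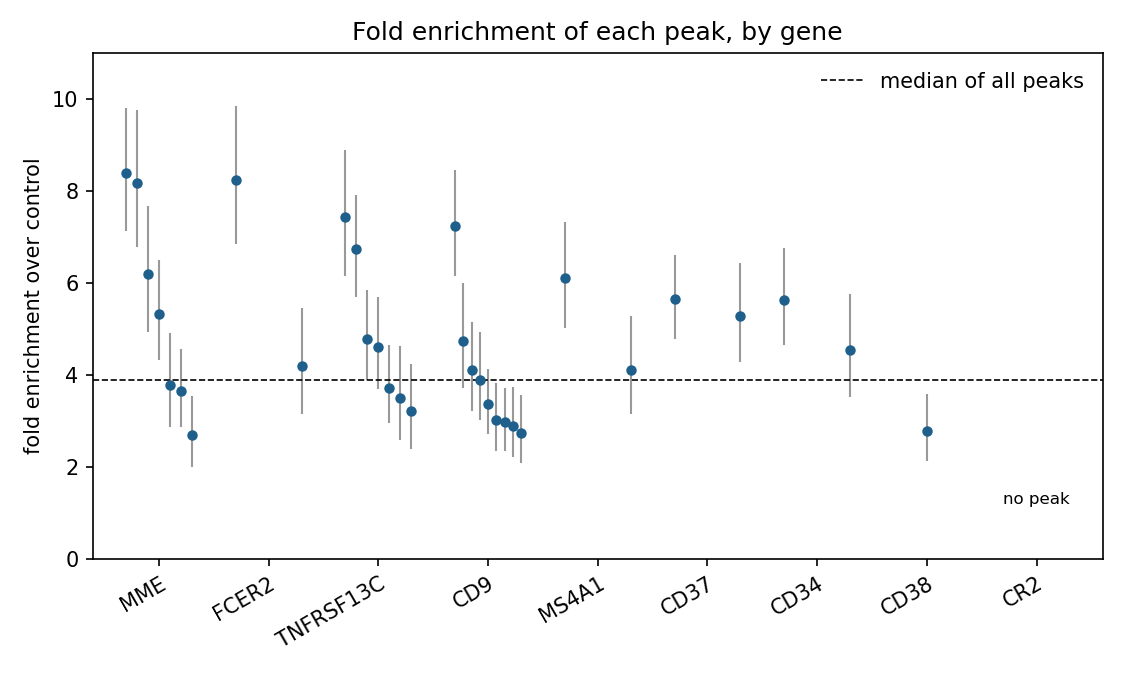
Fold enrichment over control of each of the 32 peaks, by gene in the order of the highest fold, with bars for the exact Poisson 95% interval of the ChIP reads and a dashed line at the median of all peaks (3.89). MME and FCER2 reach above 8, and the only peak of CD38 lies below the dashed line.

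Ordered by the strongest site, the genes ran MME (8.39), FCER2 (8.24), TNFRSF13C (7.43), CD9 (7.24), MS4A1 (6.10), CD37 (5.64), CD34 (5.63) and CD38 (2.79). The intervals of neighbours in this order overlapped, except at its end. There the interval of CD34 (from 4.65) lay above that of CD38 (to 3.58). Genes with more peaks had more chances of a high one.

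Sites near the start end were found at 6 of the 9 genes, and were rarely the strongest. The 6 genes with a summit within 1 kb of that end were MS4A1, CD37, CD38, FCER2, CD9 and TNFRSF13C. Only 1, CD37, had one within 1 kb of the opposite end. The distance of 1 kb was chosen after seeing the peaks. The count was 6 at 2 and 5 kb and 4 at 500 bp. At 1 kb it was 5 and 3 at a −log10 q of at least 5 and 10. Of consecutive 2 kb windows along the chromosomes, 1.31% held a summit. How often the starts of other genes hold one was not tested. MME was judged by the start end of its span alone, since its RefSeq starts were not placed on hg19. Spans are given in whole kb, so the 734 bp at CD37 need not be its distance from an annotated start. The 7 summits near starts had folds from 2.74 to 5.27. In 5 of the 6 genes another site was stronger. The intervals of the strongest start site and of the strongest site overall were apart in FCER2, CD9 and TNFRSF13C and overlapped in MS4A1 and CD37. Choosing the strongest of several sites favours such an order, and in CD38 there was only 1 site. By place, the median fold was 4.19 for the 7 summits near starts, 4.32 for the 18 elsewhere in the spans and 4.79 for the 7 in the flanks.

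**Figure D4:**
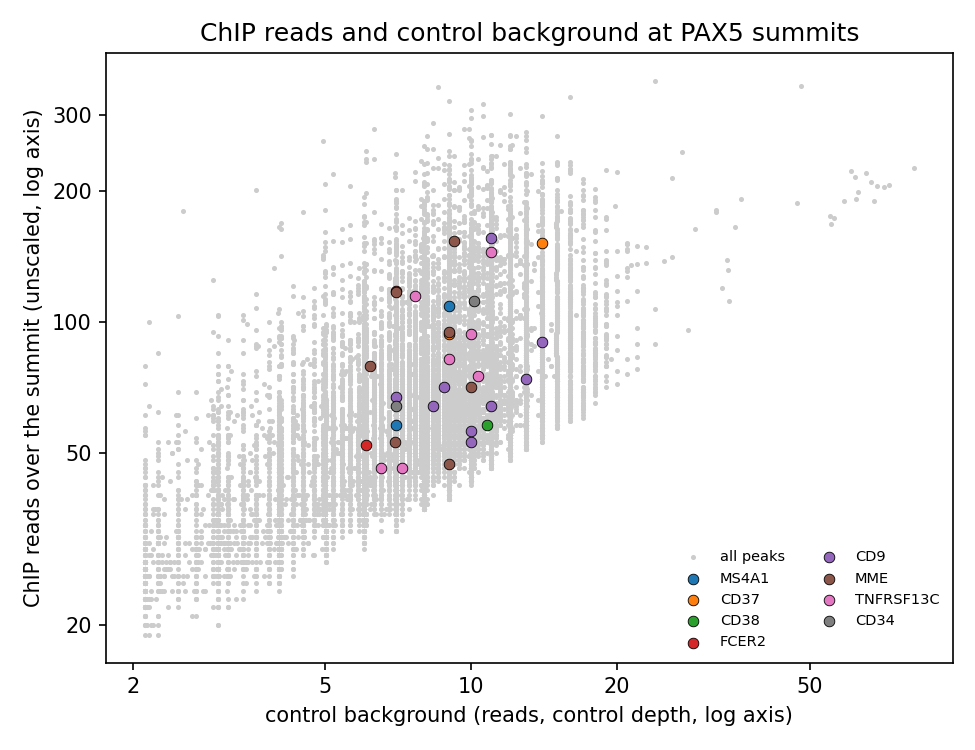
ChIP reads over the summit (vertical, log axis) against control background in reads at control depth (horizontal, log axis) for all 21361 peaks (grey) and for the 32 peaks at the surface antigen genes (coloured by gene). The coloured points lie between 46 and 156 reads, inside the grey cloud, with backgrounds from 6.07 to 14.

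The control differed between the sites. It was highest at the far end of CD37 and at the CD9 summit at 6333953 (14 reads each) and lowest at the start end of FCER2 (6.07). The CD9 summit had 90 reads, more than the 79 at the MME summit at 154815170, but a fold of 3.37 against 6.19, since the MME background was 6.19 reads. The part of copy number or chromatin accessibility in the control was not tested.

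Some sites lay close to the limit of the windows. A TNFRSF13C site with a fold of 6.73 was 613 bp inside the limit, and a weaker one, with 45 reads and a fold of 2.58, was 39 bp outside. At CD34 a summit with 72 reads and a fold of 5.56 was 127 bp outside, past the far end of the gene. At CD9 one with a fold of 3.14 was 738 bp outside, before the start end. At FCER2 a summit at 7741494, 1.51 kb outside and past the far end, had 95 reads over 5.00 and a fold of 8.88 (7.22 to 10.8). That value is above those of all 32 peaks, although its interval overlaps those of the 3 strongest. All 32 peaks were listed with the same borders in the cleaned list that the authors also deposited. The share of all peaks so listed is not given here, so nothing particular to these sites can be read from it.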

How the data were processed

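Alignment used BWA and hg19, as named in the submitters' processing notes. The caller was MACS2 (2.1.1.20160309), which set a pooled ChIP alignment against the control with reads extended to 225 bp and a q-value threshold of 0.05, per the file headers. The lowest deposited −log10 q was 1.30, at that threshold. The number of libraries in the pool is not given. The deposited values per peak are the pileup signal, scaled to the depth of the control, the fold ratio over local control, and the −log10 p and q values, per the file headers. Peak positions and widths are the authors' and count from 1.

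ChIP reads over a summit were recovered as the deposited pileup divided by 0.550, which gave whole reads for 100% of the peaks within 0.005 pileup units. Pileup and fold then gave the control background, with a pseudocount of 1. Both steps were checked on 5000 simulated peaks (100% of read numbers recovered). The rule for named genes takes all 9 genes and all their peaks. The genes, windows and thresholds were chosen with earlier results of these data known, and the distance of 1 kb to the start end after seeing the peaks. The start end follows the strand in the RefSeq promoter table (GRCh38.p14), or general knowledge for MS4A1, CD37 and TNFRSF13C. Neighbouring protein-coding genes were named from RefSeq. Other B-lineage antigens had been listed, but were not placed, since an hg19 annotation was not used here. Alternatives were the flank, the cleaned list, stricter q-values, overlap in place of summits and merging of peaks. Scripts ran in matplotlib 3.10.9, scipy 1.17.1, pandas 2.3.3, numpy 2.4.6 and Python 3.11.15.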

Additional observations from a re-analysis of the deposited data

How the results depend on the processing

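The 32 peaks became 24 without flanks, 48 with flanks of 50 kb, 33 by overlap, 30 after merging peaks within 500 bp, 27 at a −log10 q of at least 5 and 17 at 10, where the median fold of 4.36 became 5.64. Raising the threshold removes weak peaks by construction, and the share of all peaks that pass is not given here. Windows with a peak numbered 7 to 9 under these settings. Flanks of 50 kb gave CR2 2 peaks, TNFRSF13C 13, and CD34 5 with a highest fold of 7.34. Without CD9, MME and TNFRSF13C, 9 peaks in 5 windows remained, with a median fold of 5.27. Genes with a summit near the start end numbered 6 at 1, 2 and 5 kb, 4 at 500 bp, 5 and 3 at a −log10 q of at least 5 and 10, and 1 at the opposite end of the span. The settings for the start end and the one without 3 genes were chosen after seeing the data. No paired analysis was possible because each group has 1 sample. The order of the strongest sites was not tested, and no spread between libraries can be given.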

Other observations

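The surroundings of several windows held strong PAX5 sites at longer distances. At CD34 a summit on chromosome 1 at 208108720, 23.7 kb before the start end, had 145 reads over 10.0 and a fold of 7.34 (exact Poisson 95% interval 6.21 to 8.63), which overlaps the interval of the stronger summit inside the gene (4.65 to 6.76). At CD38 the next summit past the far end, on chromosome 4 at 15932249, lay 77.2 kb away with 120 reads over 6.98 and a fold of 8.41 (6.99 to 10.0), whose interval lies above that of the only CD38 peak (2.14 to 3.58). At MS4A1 the next summit past the far end, on chromosome 11 at 60338639, lay 99.6 kb away with 161 reads over 9.0 and a fold of 8.96 (7.64 to 10.4). MME was the most isolated of the 9 genes on its start side, where the next summit was 699 kb from the span, on the side of GPR149. To which genes these sites belong was not tested.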
